A study of Mus musculus with 6 samples.

Results

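The glucose-6-phosphatase system and the hexokinases catalyze opposite steps of liver glucose metabolism. They were followed here in 8 genes chosen by name, namely G6pc, G6pc3, Slc37a4, Gckr, Hk1, Hk2, Hk3 and Hkdc1. All 8 were among the 18419 genes with a count in the liver RNA-seq data and among the 13431 genes tested. Livers came from 6 Mettl14f/f male mice, which carry floxed alleles of the m6A writer subunit Mettl14 in both groups. HFD feeding started at 8 weeks of age, and AAV8-TBG-Cre (3 mice) or AAV8-TBG-GFP (3 mice, the control) was given after 10 weeks of HFD. Livers were collected 8 weeks after the vector, so both groups had HFD and a vector. The TBG promoter directs Cre or GFP to hepatocytes, and other liver cells keep their Mettl14 alleles. The comparison addressed which genes of hepatic glucose production (HGP) depend on Mettl14.

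Hepatocytes release glucose through an enzyme complex of the endoplasmic reticulum. The transporter encoded by Slc37a4 carries glucose 6-phosphate into its lumen, and the catalytic subunit encoded by G6pc removes the phosphate, the last step of both glycogenolysis and gluconeogenesis. G6pc3 encodes a catalytic subunit found in most tissues. Hexokinases run the reverse reaction and trap glucose in the cell. Gckr encodes a regulatory protein of liver that restrains glucose phosphorylation when glucose is low. Hk1, Hk2 and Hk3 encode hexokinases with high affinity for glucose, and Hkdc1 encodes a further member of that family. G6pc, Slc37a4 and Gckr are typical of liver. METTL14 acts with METTL3 to methylate adenosines within short motifs of mRNA, of which GGACU is a common form.

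Sequences are shown for the features of G6pc and the hexokinases that bear on m6A and on transcription. G6pc lies at chr11:101367716-101377903 of GRCm38.p6, and its reference transcript held 4 GGACU motifs. They are printed with 8 bases on either side of the motif, in RNA letters with the motif in capitals, and positions refer to the methylatable adenosine on the + strand of NCBIM37.
G6pc, chr11:101229059, exon 1, before the start codon: accgggcuGGACUcacugcac
G6pc, chr11:101229193, exon 1, coding: gacucccaGGACUgguucauc
G6pc, chr11:101237748, exon 5, coding: ccuccuguGGACUuuggagaa
G6pc, chr11:101238159, exon 5, after the stop codon: caugcaaaGGACUaggaacaa
These motifs are reference sequence, and the RNA-seq data carry no measurement of methylation.

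GGACU was denser in G6pc3, Hk1, Hk2 and Hk3 than in G6pc. The motif occurred 1.66 times per kb in the G6pc transcript and 2.57 times per kb in Hk1, against a median of 1.04 over 19915 genes. Hk1 held 11 sites, Hk2 held 10, Hk3 held 6 and Hkdc1 held 3. The lowest densities were those of Hkdc1 (0.853 per kb) and Slc37a4 (0.855 per kb). A pair of coding sites lay at the same distance from the coding end in Hk1 and Hkdc1, and another pair in Hk2 and Hk3. These sites were picked for that match, so the motif bases are shared by choice. All are on the - strand of NCBIM37.
Hk1, chr10:61747106, exon 12: gacuuccuGGACUacaugggg
Hkdc1, chr10:61861412, exon 12: gacuuccuGGACUacaugggc
Hk2, chr6:82684930, exon 12: ugcaucgcGGACUuccuugag
Hk3, chr13:55112146, exon 13: ugcaucguGGACUuccagaag
The Hk1 and Hkdc1 stretches differed at 1 of 21 bases and the Hk2 and Hk3 stretches at 4. Coding sequences of the 4 hexokinases shared between 65.8% and 72.9% of aligned bases, with identical runs of 16 to 27 bases at most. G6pc and G6pc3 shared 61.7%, with a longest identical run of 13 bases.

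The 250 bases before the transcript starts of G6pc and Hkdc1, the members with the largest differences between the vectors, are given 5' to 3' on the strand of each gene (RefSeq, GRCm38.p6). Capitals mark TGTTTTG, TTACGTAA and TATAAA.
G6pc, chr11:101367466-101367715, + strand: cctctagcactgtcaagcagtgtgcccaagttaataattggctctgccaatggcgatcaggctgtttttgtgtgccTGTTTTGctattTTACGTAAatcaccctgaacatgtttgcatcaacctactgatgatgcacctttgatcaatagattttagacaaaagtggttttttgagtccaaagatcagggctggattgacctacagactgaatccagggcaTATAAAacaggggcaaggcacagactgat
Hkdc1, chr10:62422458-62422707, - strand: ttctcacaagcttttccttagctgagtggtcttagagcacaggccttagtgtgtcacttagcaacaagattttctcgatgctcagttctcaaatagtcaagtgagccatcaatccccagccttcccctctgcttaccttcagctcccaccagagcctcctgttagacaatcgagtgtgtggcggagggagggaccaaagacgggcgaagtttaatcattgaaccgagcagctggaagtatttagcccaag
TATAAA (a core promoter element) was in 12.4% of 32851 reference windows of the same 250 bases before a start, searched on both strands, TGTTTTG (a FoxO-type insulin response element) in 5.56%, and TTACGTAA (a variant of the cyclic AMP response element) in 0.113%. Among the 11 windows of the 8 genes, TATAAA was also found for Slc37a4, TGTTTTG also for Gckr, and TTACGTAA for G6pc alone. Of the other letters searched, CACGTG (an E-box) was found for G6pc3 and in 6.02% of all windows. TGTTTAC (3.17% of windows) and TGACGTCA (1.55%) were found for none of the 8. The Hkdc1 window held none of these letters. It belongs to a transcript start that lies 1254 bases inside the annotated gene span. The motif list was drawn up after the G6pc sequence had been seen, and a match is a description of the letters only.

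Expected counts added up to between 20356440 and 21010508 per liver. Levels are given as CPM (counts scaled to a common library size, after TMM), or as FPKM (scaled by transcript length too) where genes are compared with each other. Values of a group follow the order of the replicate numbers. Hepatocyte markers dominated every library, with 92008 to 129270 summed CPM of 10 genes, led by Alb and Cyp2e1. The library labelled AAV8-TBG-Cre replicate 2 had the largest TMM factor, 1.178 against 0.9131 to 1.021 elsewhere. It also had the lowest hepatocyte sum, but CPM are divided by this factor, so the 2 values are not independent. Library names had 2 forms in the labels, short for control replicates 1 and 2 and for Cre replicate 1, and long for the other 3. What the forms stand for is not given in the sources used here.

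Mettl14 itself, the targeted gene, stood at 6.30, 6.43 and 5.81 CPM in the controls and at 4.96, 5.38 and 4.86 CPM in the Cre livers. The groups did not overlap in CPM but overlapped in FPKM, where AAV8-TBG-Cre replicate 2 (2.40) was the highest of all. The log2 fold change was -0.29 (SE 0.15), with an edgeR adjusted p = 0.337. Counts cover the whole transcript and the whole liver, and the floxed exons were not analysed separately, so the group names below are those of the labels.

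Of the 8 genes, G6pc was lower and Hk3 and Hkdc1 were higher with AAV8-TBG-Cre at the study's threshold, an unadjusted p under 0.05 with a fold change of at least 1.2. Over all genes tested, 12.0% were higher and 8.41% were lower at that threshold. The G6pc call was lost with DESeq2 on the summed expected counts (unadjusted p = 0.0508), and with upper quartile scaling in edgeR (unadjusted p = 0.0525). DESeq2 is also named in the study's methods, but there with HTSeq, so its input may not have been the same. None of the 8 had a Benjamini-Hochberg adjusted p under 0.05 in edgeR, a limit passed by 0.931% of all genes (125 genes). At an unadjusted p under 0.05, 3 passed, and DESeq2 called 1 member (Hkdc1) after adjustment. Hk3 and Hkdc1 were the 2 genes whose groups did not overlap, against 27.0% of all genes. The median log2 fold change of the 8 was 0.22, with 4 above and 4 below 0, and that of all genes was -0.01. Without AAV8-TBG-Cre replicate 1, 3 members (G6pc, Gckr and Hkdc1) passed the adjusted p and 5 the study's threshold (Hk1 and Hk3 as well), while the number of genes called over the whole table went from 125 to 928. Without AAV8-TBG-Cre replicate 2, 1 member (Hkdc1) passed the study's threshold.

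**Figure D1:**
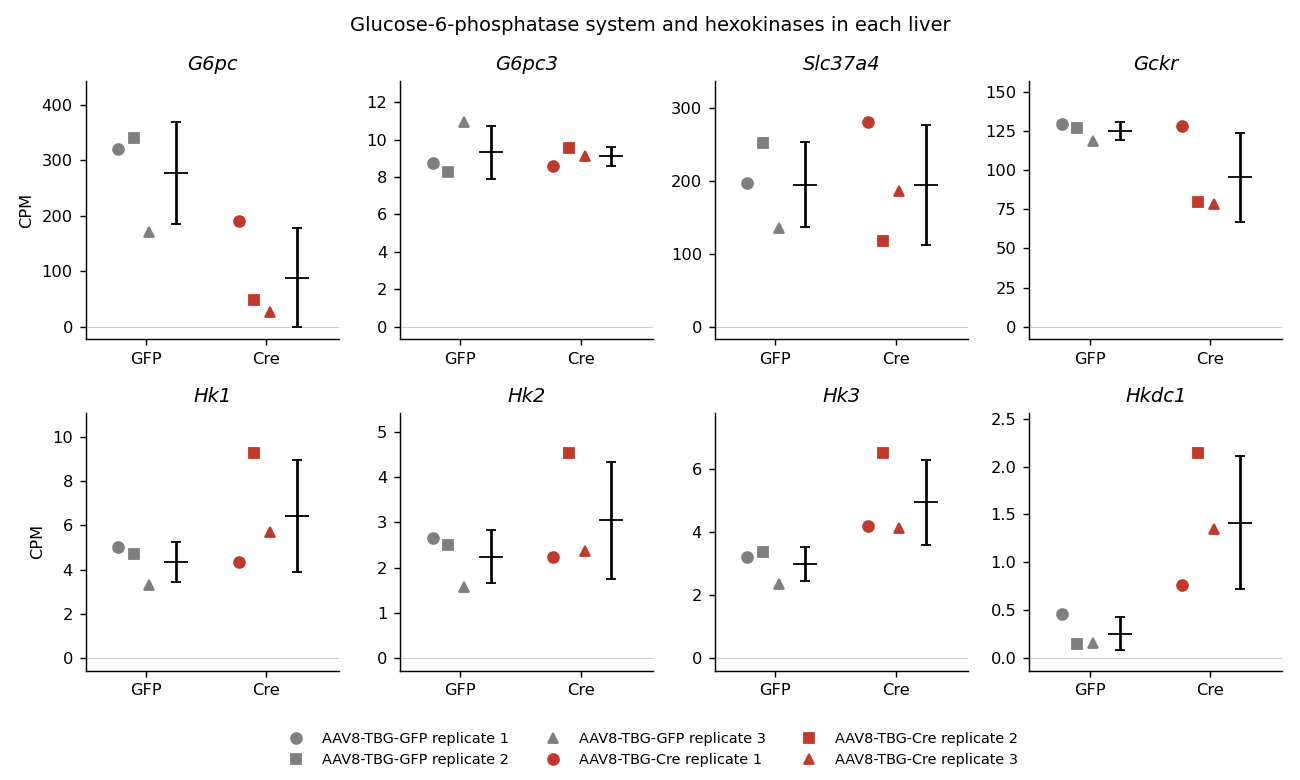
CPM (vertical axes, linear, 0 marked) of each of the 8 genes in the 3 AAV8-TBG-GFP livers (grey) and the 3 AAV8-TBG-Cre livers (red), with the replicate number as the marker shape and black bars for mean ± SD. G6pc fell between 171.5 and 339.5 CPM in the grey group and between 27.05 and 190.4 CPM in the red group, and Hkdc1 and Hk3 are the panels without overlap.

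G6pc, the catalytic subunit of the liver, was the member with the largest negative difference. The 3 controls had 320.1, 339.5 and 171.5 CPM of it. The 3 Cre livers had 190.4, 48.2 and 27.1 CPM. Both long-named Cre livers were far below every control, while AAV8-TBG-Cre replicate 1 lay above the lowest control, so the groups overlapped by 1 liver. Group means were 277.1 ± 91.9 CPM and 88.5 ± 88.8 CPM (SD, n = 3 each). In edgeR this was a log2 fold change of -1.65 (SE 0.67, 95% interval -3.21 to -0.09) with an adjusted p = 0.219 (0.0411 before adjustment). The exact two-sided permutation test gave p = 0.2, where 0.1 is the smallest p that 3 against 3 allows. By size, it was the 85th largest decrease of the genes tested.

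The size of the G6pc difference rested on single livers. Without AAV8-TBG-Cre replicate 1 it was -2.88 on the log2 scale (edgeR adjusted p = 0.0229). With either other Cre liver left out, it was -1.35 (without replicate 2) and -1.22 (without replicate 3), and it no longer met the study's threshold. That threshold was also missed without AAV8-TBG-GFP replicate 1 or 2. Within the short-named libraries the log2 ratio of mean CPM was -0.79, and within the long-named libraries it was -2.19. Within each name form, every Cre liver lay below every control. With the name form as a covariate over all 6 livers, the log2 fold change was -1.48 (SE 0.33). Its edgeR adjusted p was 0.0719 (0.00243 before adjustment). In bulk liver RNA, fewer cells of a type and less RNA per cell cannot be told apart.

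Slc37a4, the glucose 6-phosphate transporter that works with G6pc, had nearly the same mean in both groups (195.3 and 195.1 CPM). It stood at 197.1, 253.0 and 135.6 CPM in the controls and at 281.3, 117.4 and 186.7 CPM in the Cre livers. The Cre livers held both the highest and the lowest value, and the ranges overlapped throughout. The difference on the log2 scale was 0.00 (SE 0.34, 95% interval -0.78 to 0.78, edgeR adjusted p = 0.999). Its interval leaves room for a change of either sign, and the sign varied with the normalization and the livers used.

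G6pc3, the widely expressed catalytic subunit, was the steadiest of the 8 genes. It stood at 8.74, 8.26 and 10.9 CPM in the controls and at 8.59, 9.57 and 9.15 CPM in the Cre livers. All Cre livers lay within the range of the controls. The log2 fold change of -0.03 had an SE of 0.15 and a 95% interval of -0.39 to 0.32 (edgeR adjusted p = 0.926). Its sign also turned with the normalization.

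Since G6pc and Slc37a4 work as one system, their ratio within a liver was taken as a description. The FPKM ratio of G6pc to Slc37a4 was 1.49, 1.23 and 1.16 with AAV8-TBG-GFP. With AAV8-TBG-Cre it was 0.618, 0.377 and 0.132, so every Cre liver lay below every control. The mRNA of G6pc thus exceeded that of Slc37a4 on this scale in the 3 controls and was below it in the 3 Cre livers. Protein amounts were not measured in these data. G6pc alone overlapped between the groups. AAV8-TBG-Cre replicate 1, the Cre liver with the most G6pc, also had the most Slc37a4 of all livers (137.8 FPKM). How many other gene pairs have ratios that separate the groups was not counted. The ratio of G6pc to G6pc3 was 25.8, 28.9 and 11.0 in the controls and 15.6, 3.55 and 2.08 in the Cre livers, with an overlap.

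**Figure D2:**
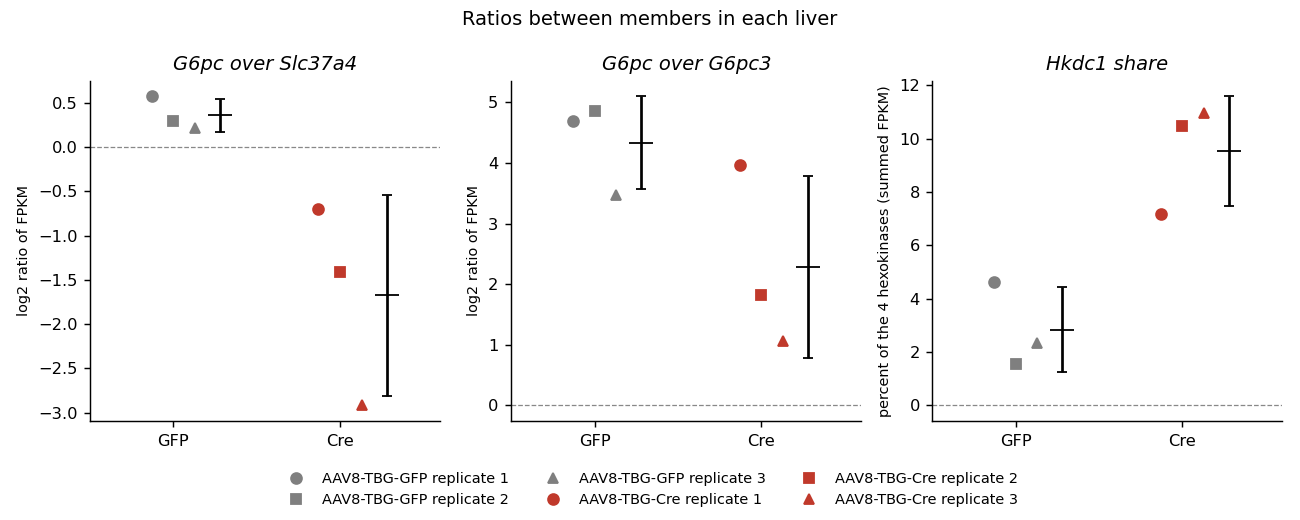
Left and middle, log2 ratio of FPKM of G6pc to Slc37a4 and of G6pc to G6pc3. Right, the share of Hkdc1 in the summed FPKM of Hk1, Hk2, Hk3 and Hkdc1, in percent. Grey and red points are single AAV8-TBG-GFP and AAV8-TBG-Cre livers and bars are mean ± SD (n = 3). The G6pc to Slc37a4 ratio and the Hkdc1 share separate the groups, and the G6pc to G6pc3 ratio does not.

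On the side of glucose phosphorylation, the regulator Gckr was at 129.1, 127.0 and 118.2 CPM in the controls. In the Cre livers it was at 128.0, 79.6 and 78.4 CPM. AAV8-TBG-Cre replicate 1 matched the controls, and the other 2 Cre livers lay below all of them, the same livers in which G6pc was lowest. Its log2 fold change was -0.39 (SE 0.20, 95% interval -0.85 to 0.07, edgeR adjusted p = 0.312). Without AAV8-TBG-Cre replicate 1 it was -0.66 (adjusted p = 0.0280 in edgeR). The log2 ratio was -0.001 within short-named libraries and -0.58 within long-named ones.

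**Figure D3:**
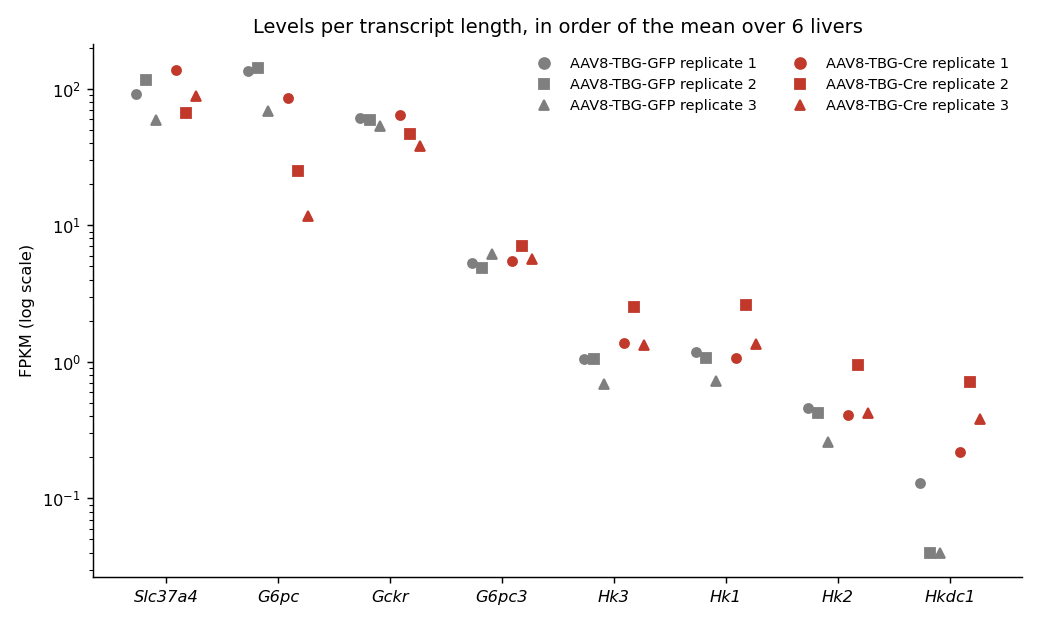
FPKM (log axis) of the 8 genes in each liver, in order of the mean over the 6 livers. Grey points are AAV8-TBG-GFP livers, red points AAV8-TBG-Cre livers, and the marker shape gives the replicate. Slc37a4, G6pc and Gckr lie above G6pc3, and the 4 hexokinases lie lowest.

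Per transcript length, Slc37a4, G6pc and Gckr stood highest. Mean FPKM over the 6 livers was 93.0 for Slc37a4, 77.9 for G6pc and 53.8 for Gckr. It was 5.74 for G6pc3, 1.33 for both Hk3 and Hk1, 0.487 for Hk2 and 0.253 for Hkdc1. The ranges of Slc37a4, G6pc and Gckr overlapped, as did Hk3 and Hk1, Hk1 and Hk2, and Hk2 and Hkdc1. G6pc3, at 4.89 to 7.01 FPKM, overlapped with neither neighbour, Gckr above it (38.2 to 64.4) and Hk3 below it (0.69 to 2.51). Hk1, Hk2, Hk3 and Hkdc1 added up to 2.80, 2.57 and 1.71 FPKM in the controls and to 3.06, 6.78 and 3.47 FPKM in the Cre livers.

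Hkdc1 was the member with the largest difference of all and the lowest level. Its counts were 9, 3 and 3 in the controls and 16, 52 and 28 in the Cre livers. On the CPM scale these were 0.457, 0.153 and 0.157 against 0.764, 2.14 and 1.35. Every Cre liver was above every control. Exact Poisson 95% intervals, which cover counting error only, were 0.209 to 0.868 CPM for the highest control and 0.436 to 1.24 CPM for the lowest Cre liver, so these 2 livers were not told apart by their counts. Summed over livers, 15 fragments against 96 gave, after scaling by the effective library sizes, a ratio of 5.65 (exact 95% counting interval 3.26 to 10.5).

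Between mice, the Hkdc1 log2 fold change was 2.45 (SE 0.58, 95% interval 1.10 to 3.79), with an edgeR adjusted p = 0.0803 (0.00319 before adjustment). It was the 98th largest increase. The exact permutation test gave p = 0.1, the smallest possible. DESeq2 gave 2.47 with an adjusted p = 0.00984, and edgeR without AAV8-TBG-Cre replicate 1 gave 2.74 with an adjusted p = 0.0368. Without AAV8-TBG-GFP replicate 1, the control with 9 counts, the value was 3.14. The study's threshold was met with each liver left out in turn. The log2 ratio was 1.32 within short-named and 3.47 within long-named libraries. The share of Hkdc1 in the FPKM of the 4 hexokinases was 4.64%, 1.56% and 2.34% in the controls and 7.19%, 10.5% and 11.0% in the Cre livers.

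Hk3, the hexokinase best known from white blood cells, was also higher in every Cre liver. Controls had 3.20, 3.37 and 2.36 CPM and Cre livers 4.20, 6.49 and 4.14 CPM. AAV8-TBG-Cre replicate 2 was the highest, and the other 2 Cre livers lay just above the controls. The log2 fold change was 0.73 (SE 0.26, 95% interval 0.13 to 1.34), with an edgeR p = 0.0232, an adjusted p = 0.171 and an exact permutation p = 0.1. Without AAV8-TBG-Cre replicate 2 it was 0.48, and without AAV8-TBG-GFP replicate 3 it was 0.58, and neither met the study's threshold.

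Hk1, the hexokinase of most adult tissues, was at 5.03, 4.69 and 3.30 CPM in the controls and at 4.34, 9.24 and 5.68 CPM in the Cre livers. Its log2 fold change was 0.57 (SE 0.31, 95% interval -0.15 to 1.29, edgeR adjusted p = 0.344). Hk2, the insulin-responsive form of muscle and fat, was at 2.64, 2.50 and 1.57 CPM in the controls and at 2.24, 4.52 and 2.36 CPM in the Cre livers. Its log2 fold change was 0.45 (SE 0.36, 95% interval -0.38 to 1.27, edgeR adjusted p = 0.523). For both genes the ranges overlapped, and AAV8-TBG-Cre replicate 2 alone stood above the controls by a wide margin. Without that liver the log2 fold changes were 0.20 for Hk1 and 0.04 for Hk2. Between short-named libraries the log2 ratio was negative for both, at -0.16 and -0.20, and between long-named libraries it was 1.18 and 1.13.

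**Figure D4:**
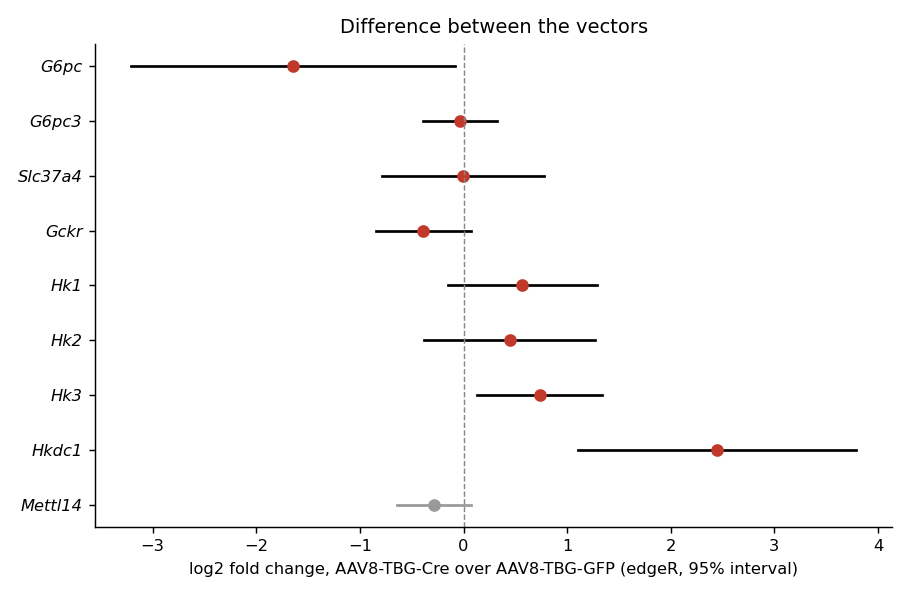
Log2 fold change of AAV8-TBG-Cre over AAV8-TBG-GFP (horizontal axis) with its 95% interval from edgeR for the 8 genes (red) and for Mettl14 (grey), 3 livers per group. Only the intervals of G6pc, Hk3 and Hkdc1 exclude 0, before adjustment for the number of genes tested.

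**Figure D5:**
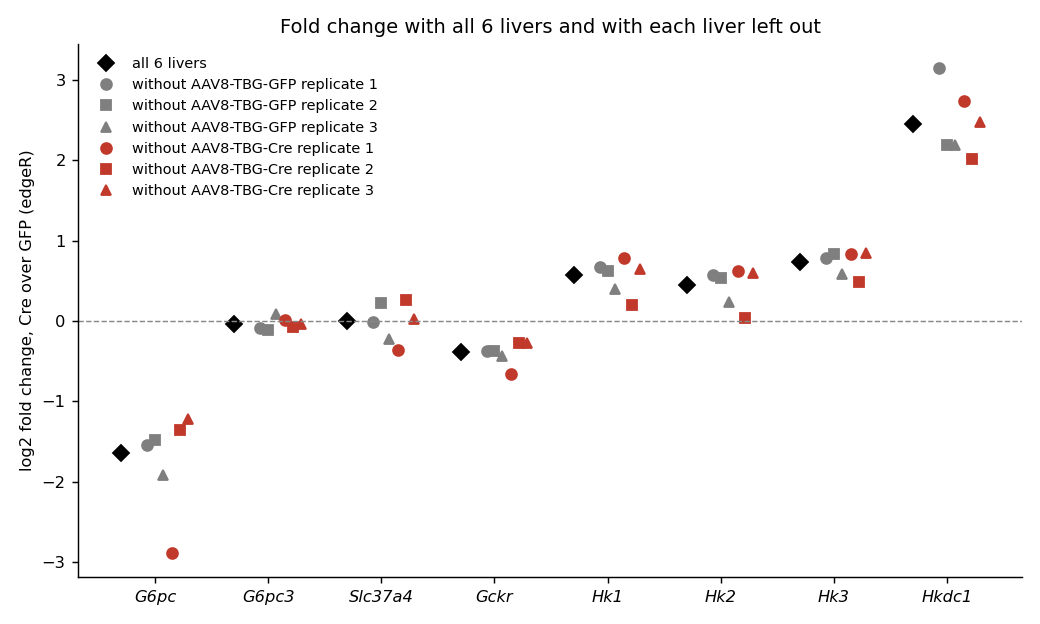
Log2 fold change (vertical axis) of each gene with all 6 livers (black diamonds) and with 1 liver left out (grey, a control left out; red, a Cre liver left out). G6pc spans -2.88 to -1.22 and Hkdc1 spans 2.01 to 3.14, while G6pc3 and Slc37a4 lie on both sides of 0.

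Marker sums of cholangiocytes, macrophages, neutrophils, stellate cells and B cells were higher in every Cre liver than in every control. Those of endothelial cells, T and NK cells and adipocytes were not. The B cell sum was low, at 1.52, 1.38 and 1.57 CPM in the controls and 4.01, 3.86 and 1.64 CPM in the Cre livers. Cholangiocyte markers summed to 128.2, 72.2 and 117.1 CPM in the controls and to 359.9, 574.3 and 306.0 CPM in the Cre livers. All 8 of 8 tested markers were higher at the study's threshold, 3 of them after adjustment (edgeR), namely Sox9 (adjusted p = 0.0454), Cldn4 (0.0409) and Spp1 (0.0444), the most abundant one. The hepatocyte sum ran from 113550 to 129270 CPM in the controls and from 92008 to 115540 CPM in the Cre livers, with 1 marker higher (Cps1) and 1 lower (Ttr) of 10. Like Hkdc1, the cholangiocyte sum was higher in every Cre liver and highest in AAV8-TBG-Cre replicate 2. The part of cholangiocytes in the Hkdc1 difference was not tested.

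Macrophage and Kupffer cell markers summed to 256.6, 240.5 and 218.5 CPM in the controls and to 356.1, 525.0 and 333.4 CPM in the Cre livers. Of 10 markers, 6 were higher and 1 was lower at the study's threshold. After adjustment in edgeR, Cd5l rose (log2 fold change 0.71, adjusted p = 0.0471) and the scavenger receptor Cd163 fell (-2.21, adjusted p = 0.0330). Lyz2, one of the most abundant, had a log2 fold change of 1.52 (edgeR adjusted p = 0.0697). Neutrophil markers summed to between 15.0 and 16.9 CPM in the controls and between 19.8 and 22.1 CPM in the Cre livers. Of 5 tested, 3 were higher (S100a8, S100a9 and Csf3r) and 1 was lower (Ly6g, log2 fold change -0.52), while Cxcr2 overlapped (0.04). S100a8 rose after adjustment (log2 fold change 2.10, edgeR adjusted p = 0.0409), at only 0.254 to 0.306 CPM in the controls and 1.15 to 1.30 CPM in the Cre livers. Like Hk3, both sums were higher in every Cre liver and highest in AAV8-TBG-Cre replicate 2. The B cell sum was also higher in every Cre liver. The part of these cells in the Hk3 difference was not tested.

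Stellate cell and fibroblast markers summed to 333.7, 276.6 and 218.9 CPM in the controls. In the Cre livers the sums were 402.7, 839.1 and 426.6 CPM. Of 8 markers, 3 were higher (Col1a1, Col3a1 and Pdgfrb). The collagen Col3a1 ran from 30.7 to 59.8 CPM in the controls and from 117.7 to 299.7 CPM in the Cre livers. Dcn, one of the most abundant, had a log2 fold change of 0.38 (edgeR adjusted p = 0.481), and its groups overlapped. The groups also overlapped for Lrat (-0.25), Acta2 (-0.37), Reln (-0.105) and Des (0.13). The highest sum was again in AAV8-TBG-Cre replicate 2, the liver with the most Hk1, Hk2 and Hk3, and the lowest was in AAV8-TBG-GFP replicate 3, the liver with the least. The macrophage sum was highest and lowest in the same livers. Cholangiocyte and neutrophil sums were also highest in AAV8-TBG-Cre replicate 2, so the match was not particular to stellate cells. The part of any of these cell types in the Hk1 and Hk2 values was not tested. Endothelial markers had none higher and 1 lower (Stab2) of 8. Cps1, Ttr, Pdgfrb, Col1a1, Lrat, Acta2, Reln, Des, S100a9, Ly6g and Stab2 were named after their values were seen. Of markers of T and NK cells 1 was higher and 1 lower of 3 tested, of B cells 1 was higher of 1 tested, and of adipocytes 1 was lower of 3 tested.

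In the list on glucose 6-phosphate use and the linked supply of NADPH, 1 of 9 tested genes was higher and 1 was lower at the study's threshold, a share near that of all genes (12.0% and 8.41%), with a median log2 fold change of -0.07. G6pdx, the entry to the pentose phosphate pathway, had a log2 fold change of 1.03 (edgeR adjusted p = 0.0684). Hsd11b1, a reductase of the endoplasmic reticulum that reactivates glucocorticoids and does not act on glucose 6-phosphate itself, had one of -0.85 (adjusted p = 0.0882 in edgeR). G6pdx lay between 3.72 and 4.40 CPM in the controls and between 6.45 and 10.7 CPM in the Cre livers. Hsd11b1 lay between 419.7 and 468.1 CPM in the controls and between 171.2 and 308.3 CPM in the Cre livers. G6pc2, the islet form of the catalytic subunit, was not listed in any library.

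Upstream in gluconeogenesis, 2 of 14 tested genes were higher and 1 was lower (median -0.20). Mitochondrial Gpd2, which oxidizes glycerol 3-phosphate, fell from 64.5 to 76.8 CPM in the controls to 41.7 to 43.9 CPM in the Cre livers (log2 fold change -0.71, edgeR adjusted p = 0.0363). The mitochondrial form of phosphoenolpyruvate carboxykinase, Pck2, had a log2 fold change of 0.87 and the cytosolic aspartate aminotransferase Got1 one of 1.28 (edgeR adjusted p = 0.101 and 0.0891). In glycolysis 2 of 21 were higher (Pfkp 0.95 and Pkm 0.87 on the log2 scale) and 1 was lower, the liver phosphofructokinase Pfkl (-0.30). These 3 had edgeR adjusted p between 0.101 and 0.196.

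Among 16 glycogen genes, 2 were higher and 3 were lower (median -0.17). Pygb, the brain form of glycogen phosphorylase, rose from 3.25 to 5.23 CPM in the controls to 12.2 to 26.8 CPM in the Cre livers (log2 fold change 2.08, edgeR adjusted p = 0.0460). Gys1, the muscle form of glycogen synthase, had a log2 fold change of 0.53. The branching enzyme Gbe1 had -1.01, the phosphatase subunit Ppp1r3b -0.39 and the phosphorylase kinase subunit Phkb -0.31. Of 7 glucose transporters tested, 1 was higher, the sodium-coupled Slc5a1, which rose with a log2 fold change of 2.07 (edgeR adjusted p = 0.0414) at 1.12 to 1.68 CPM in the controls and 4.14 to 8.42 CPM in the Cre livers. Of 26 genes that control glucose output, 1 was higher (Creb1, 0.31) and 4 were lower, namely Cebpb (-0.65), Nr0b2 (-0.71), Mlxipl (-0.61) and Txnip (-0.91), with edgeR adjusted p between 0.0735 and 0.236. The share of these lists past the threshold can be read against 12.0% and 8.41% of all genes.

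The genes whose pattern over the 6 livers was most like that of G6pc were picked among 11431 genes by the smallest root mean square difference of log2 CPM around each gene's mean. They were C730036E19Rik (0.297), Fbf1 (0.407), Acot11 (0.455), Hnf4aos (0.471) and Car3 (0.512). C730036E19Rik, for example, stood at 157.2, 153.7 and 96.4 CPM in the controls and at 86.9, 19.2 and 20.5 CPM in the Cre livers. The muscle-type carbonic anhydrase Car3 stood at 3857, 3820 and 3135 CPM and at 1686, 1017 and 631.7 CPM. Hnf4aos is antisense to Hnf4a, and without a stated strand reads of sequence shared with that gene cannot be told apart. Hnf4a itself had a log2 fold change of 0.07 (edgeR adjusted p = 0.871), and its groups overlapped. The part of Hnf4a reads in the Hnf4aos values was not tested.

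Closest to Hkdc1 were Cyp1b1 (0.172), Lamc3 (0.193), Basp1 (0.193), Tgfb2 (0.225) and Chrnb1 (0.228). Lamc3, a laminin chain, rose with a log2 fold change of 2.11 (edgeR adjusted p = 0.0446), from 2.91 to 4.62 CPM in the controls to 9.54 to 22.6 CPM in the Cre livers. Tgfb2, a growth factor of the TGF-beta family, stood at 0.864, 0.459 and 0.576 CPM in the controls and at 2.10, 4.64 and 2.55 CPM in the Cre livers. All of these likenesses are over the same 6 libraries. Hkdc1 and Hk1 are neighbours on chromosome 10, at chr10:62383137-62423711 and chr10:62268855-62379920 of GRCm38.p6 with 3216 bases between them, and their values differed in size as given above. The other members lie apart, G6pc3 at chr11:102189699-102194081, Slc37a4 at chr9:44396946-44402966, Gckr at chr5:31297266-31327302, Hk2 at chr6:82725025-82774454 and Hk3 at chr13:55005985-55021475.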

How the data were processed

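Liver RNA of 6 mice was sequenced. Each transcript has an expected count and an FPKM, deposited by the authors and rounded to 2 decimals. The submitters' processing notes name mm10, HISAT2, Bowtie2 and RSEM, while STAR, HTSeq and DESeq2 stand in the methods of the study, all without versions. Expected counts were summed per NCBI gene ID and rounded, giving 18419 genes, 18375 of them matched to the RefSeq table. FPKM per gene were taken as deposited by the authors. An expected count divides fragments shared by transcripts, so 45.4% were whole and isoform values are estimates. Replicate pairs of a group differed beyond sampling noise (chi-square per gene of 25.8 or more).

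Groups were compared with edgeR 4.0.16 (R 4.3.3), quasi-likelihood, TMM, filterByExpr, vector only, Benjamini-Hochberg adjustment over 13431 genes. It was also run on independent simulated counts, with the spread per gene estimated from these libraries and no effect of library name form. That run checks the fitting and not the calls made here. Other settings were DESeq2 1.42.0, upper quartile or RLE scaling, other count filters, the replicate number or library name form as a term, limma 3.58.1 on log2(FPKM + 1) or log2(FPKM + 0.1) and leaving out each liver. The members, lists and markers were chosen with earlier results of these data known. All 8 members and Mettl14 are named, then list genes past the study's threshold, markers past adjustment or among the 2 most abundant of a list, and the 5 genes most like G6pc and Hkdc1 with a mean log2 CPM of at least 1. Promoters were read from RefSeq windows (GRCm38.p6), GGACU from GENCODE transcripts on NCBIM37. No sample was left out, 2 further genes of these lists are not reported here, and p-values measure the spread between these mice.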

Additional observations from a re-analysis of the deposited data

How the results depend on the processing

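The sign of G6pc, Gckr, Hk3 and Hkdc1 was the same under all 18, 18, 18 and 15 alternatives that gave a value. For Gckr this counts the short-named libraries, where the value of -0.001 was no difference. The study's threshold was met by G6pc in 10 of 16 alternatives with a test (not with DESeq2, upper quartile scaling or 4 of the livers left out), by Hk3 in 14 of 16 and by Hkdc1 in 13 of 13. Past the adjusted p, Hkdc1 was called by DESeq2 (2.47), which called 1 member and 1157 genes, and without AAV8-TBG-Cre replicate 1 G6pc, Gckr and Hkdc1 passed it. Over all genes, the adjusted p called 125, against 66 with upper quartile scaling, 372 without a count filter, 76 with at least 10 counts in every library, 214 with library name form as a covariate and 9 to 27 in the limma fits, and 1699 genes met the study's threshold with a fold of at least 1.5, against 2747. Leaving out 1 liver, the ranges were -2.88 to -1.22 for G6pc, -0.66 to -0.27 for Gckr, 2.01 to 3.14 for Hkdc1, -0.11 to 0.088 for G6pc3 (0.007 without AAV8-TBG-Cre replicate 1) and -0.37 to 0.26 for Slc37a4, 0 to 3 members past the adjusted p, 1 to 5 past the study's threshold, and 0 to 928 genes by adjusted p. Values near 0 turned sign. G6pc3 was 0.033 with upper quartile scaling, 0.12 with limma on log2(FPKM + 1), 0.14 with limma on log2(FPKM + 0.1), 0.12 with no FPKM filter and 0.015 in short-named libraries. Slc37a4 was 0.051 with upper quartile scaling, 0.009 with at least 10 counts in every library, 0.24 with library name form as a covariate, 0.125, 0.126 and 0.125 in the 3 limma fits, 0.32 in short-named and 0.17 in long-named libraries. Short-named libraries also turned Hk1 (-0.16) and Hk2 (-0.20). The cause of each was not tested. Hkdc1 was 0.41 in the unfiltered limma fit on log2(FPKM + 1), where a pseudocount of 1 exceeds its FPKM in every liver, and it could not be fitted with at least 10 counts in every library or in the 2 filtered limma fits, and Hk2 in the 2 filtered limma fits.

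The labels do not say whether replicate numbers pair the livers. Deviations of same-numbered livers correlated at 0.0091, -0.26 and 0.21, and those of differently numbered livers at -0.28 to 0.31. Deviations around the mean of only 3 livers are tied to each other, so these values cannot decide it. With the replicate number as a block, G6pc was -2.09 (edgeR adjusted p = 0.121), Gckr -0.43 (0.241), Hk3 0.72 (0.179) and Hkdc1 2.39 (0.163), 0 members passed the adjusted p and 4 the study's threshold, and 7 genes passed the adjusted p against 125. Depth limits Hkdc1 most, at 3 to 52 counts per liver.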

Other observations

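Isoform estimates of the hexokinases were unstable between livers and were not compared. G6pc, G6pc3, Gckr, Hk2 and Hkdc1 had 1 listed transcript each, Slc37a4 had 3, Hk1 had 2 and Hk3 had 4. The Hk1 transcript NM_001146100 took 34.7% and 78.6% of the Hk1 estimate in control replicates 1 and 2, 79.4% and 32.1% in Cre replicates 1 and 2, and all of it in replicate 3 of both groups. Its estimate was the same fractional value, 72.29 fragments, in AAV8-TBG-GFP replicate 2 and AAV8-TBG-Cre replicates 1 and 2. Over the whole table, 245 of 11769 transcripts with fractional estimates of at least 10 in 2 or more libraries (2.08%) had an identical value in 2 or more of them. In Slc37a4, NM_001293631 held between 87.5% and 97.7% of the estimate in every liver.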
